A study of Mus musculus with 19 samples.

Results

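The 10 genes described here are transcription factors of the early mouse embryo, *Pou5f1*, *Sox2*, *Nanog*, *Klf4*, *Klf5*, *Klf17*, *Nr5a2*, *Tfap2c*, *Cdx2* and *Spic*, and all 10 were found by name among the 25891 genes of the deposited table. They were chosen by name, with earlier results of these libraries in view. *Spic* is a candidate that the study selected on its differential transcripts, and *Tfap2c* stands on the study's list of transcripts that differ in MII oocytes. The genotype difference of *Spic* in 2cell embryos and that of *Tfap2c* in MII oocytes, with both interactions, are therefore given as descriptions without a test.

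RNA-seq was performed on 19 libraries from BL6 females of 6 to 10 weeks, superovulated with PMSG: 5 CPEB3+/- and 5 CPEB3-/- libraries of MII oocytes, which are mature oocytes arrested before fertilization, and 5 CPEB3+/- and 4 CPEB3-/- libraries of 2cell embryos, cultured from zygotes of mated females and collected 37 h after hCG. The methods describe MII oocytes obtained after hCG and others matured in culture, and do not say which were sequenced. The labels give these genotypes as Het and KO. In the conditional knockout (*CPEB3 LoxP/LoxP; ZP3 Cre+/-*) the ZP3 promoter drives Cre in the growing oocyte, so CPEB3, an RNA-binding regulator of mRNA translation, is targeted on the maternal side, without complete loss of the protein according to the study, and the embryo still receives a paternal allele. The methods also write *CPEB3 LoxP/-; ZP3 Cre+/-* for a control, and which allele the CPEB3+/- females carried was taken no further than their label. According to the methods each library pools several cells, and neither the labels nor the methods say which pools came from different females, so the p-values measure the spread between these libraries. Because embryos were pooled, fewer cells that express a gene and less RNA per cell cannot be told apart.

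The values are FPKM, fragments scaled to the transcript length and to all fragments of the library, so levels can be compared between genes. The depth read from the steps between low values was 16.9 to 23.5 M fragments (M, mega) per library. *Cpeb3* itself was higher, not lower, in the libraries labelled CPEB3-/-. In MII oocytes the CPEB3+/- libraries held 0.0755 ± 0.0240 FPKM (SD, n = 5) of it and those labelled CPEB3-/- 0.162 ± 0.0325 FPKM (n = 5), without overlap, and in 2cell embryos these values were 0.0303 ± 0.0149 (n = 5) and 0.0554 ± 0.0129 FPKM (n = 4), with overlap. These values rest on few fragments, about 7.83 to 35.8 in each MII and 2.72 to 8.82 in each 2cell library. The value covers the whole transcript and does not show whether the floxed part is missing. It is thus no check of the deletion, and the genotypes are taken from the labels. The 10 oocyte markers summed to 915 to 1619 FPKM in MII and 114 to 214 FPKM in 2cell libraries, and the 9 of 10 markers of 2cell genome activation in the table to 38.3 to 61.3 and 662 to 859 FPKM. In MII oocytes the ranges of both sums did not overlap between the genotypes, as given with the comparison there. The 7 of 10 cumulus and granulosa cell markers in the table summed to at most 1.11 FPKM in any library. Of the red blood cell markers, 2 of 6 are in the table, both alpha globin genes, with sums of up to 0.428 FPKM in MII and of 46.2 to 146 FPKM in 2cell libraries. The part of these transcripts in the results below was not tested.

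*Pou5f1* (OCT4), *Sox2* and *Nanog* are the core factors of the pluripotent inner cell mass, where OCT4 and SOX2 bind DNA together. *Klf4*, *Klf5* and *Klf17* are Krüppel-like zinc finger factors that bind GC-rich motifs, *Nr5a2* is an orphan nuclear receptor and *Tfap2c* an AP-2 factor, and these act in the cleavage stages and in the first lineages. *Cdx2* marks the trophectoderm, the outer layer of the blastocyst. *Spic* is an ETS factor of the PU.1 family, known from red pulp macrophages of the spleen. The oocyte stores maternal mRNA of some of these genes, and others are transcribed by the embryo when its genome is activated at the 2cell stage.

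Sequences around the transcription start are shown for the 4 genes called higher in CPEB3-/- oocytes or embryos and for *Spic*, the member with the largest difference. The motifs were chosen after the values were seen. RefSeq (GRCm38.p6) windows of 300 bases, from 250 bases before the start to 50 after it, were given for 8 of the 10 genes, and none for *Klf5* and *Tfap2c*. The GC box, GGGCGG on either strand, is in the windows of *Sox2*, *Klf17*, *Pou5f1* and *Klf4*, that is in 4 of the 11 windows that the 8 genes have, where 35.7% of all 32851 windows hold it. This share is near the background and is no result about these genes, and *Pou5f1* has the motif in 1 of its 2 windows only. Counted by gene, 4 of 8 hold it, against 38.2% of all gene symbols. Runs of 30 bases with the motif nearest to the start follow, in the 5′ to 3′ direction of the gene, with the GC box in capitals (CCGCCC where it lies on the other strand).
Sox2, GRCm38 chr3:34649873-34649902, plus strand: cgcggcaggccCCGCCCcctttcatgcaaa
Klf17, GRCm38 chr4:117765665-117765694, minus strand: tggccttgactCCGCCCagtgctcagaggc
Pou5f1, GRCm38 chr17:35505976-35506005, plus strand: acccacccaggGGGCGGggccagaggtcaa
Klf4, GRCm38 chr4:55532558-55532587, minus strand: agaaaggcaggGGGCGGggcctggcggcgg
The first base of the motif lies 111, 17, 45 and 101 bases before the start in that order. *Spic* and *Nr5a2*, the members lower in the CPEB3-/- 2cell libraries, have no GC box in their windows. All these starts are those of RefSeq. The gene spans given below are of GENCODE, with other starts for *Sox2*, *Klf17*, *Pou5f1* and *Spic*. There *Spic* has 4 transcripts, and its span on the minus strand begins at 88685015. The 30 bases that end at the RefSeq start of *Spic* are shown for comparison, with the base at the start in capitals.
Spic, GRCm38 chr10:88683023-88683052, minus strand: atttaatgcgactctgccagggtgttgttG
The windows differed widely in CpG content, from 40 CpG for *Klf4* and 27 for *Sox2* to 3 for *Spic* and 2 in 1 window of *Nr5a2*, against a median of 7 over all windows. The TATA box TATAAA was found only in 1 of the 2 windows of *Nr5a2* (13.6% of all windows hold it), and the octamer ATGCAAAT bound by OCT4 and the PU box GAGGAA bound by PU.1 factors only in that of *Cdx2* (1.74% and 28.3% of all windows). All motifs were searched on both strands, and matches of different motifs did not overlap. A match describes these letters only.

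In CPEB3+/- MII oocytes *Klf17* had the highest level of the 10 genes, followed by *Pou5f1*, and the ranges of both were apart from those of their neighbours in the order. *Klf17* was at 27.0, 46.2, 25.8, 41.8 and 50.4 FPKM in replicates A to E. *Pou5f1* was at 4.50, 6.65, 4.55, 4.68 and 7.33 FPKM. Thus all 5 libraries held both transcripts well above the 0.1 FPKM that was used as the filter on low values. *Tfap2c* and *Klf4* came next, with means of 1.22 and 1.07 FPKM and overlapping ranges, and *Sox2* followed at 0.345 FPKM. The other genes had means of 0.0793 (*Nr5a2*), 0.0479 (*Spic*), 0.0188 (*Klf5*), 0.00437 (*Cdx2*) and 0.000703 FPKM (*Nanog*), which correspond to about 13 fragments or fewer in each library.

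**Figure D1:**
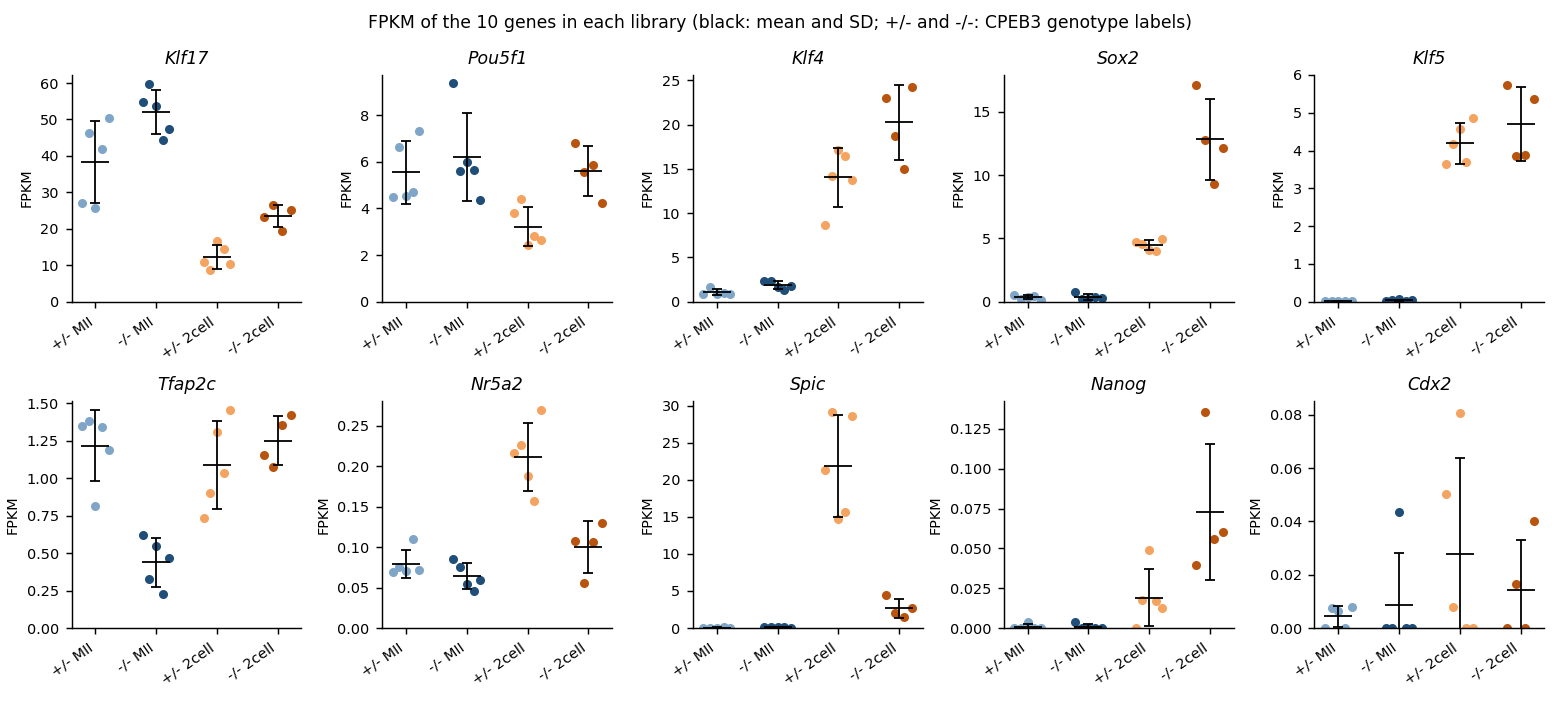
FPKM (y axis, linear, each panel with its own scale from 0) of the 10 genes in each library of the 4 groups on the x axis. Points are libraries, and black marks are the mean and SD, cut at 0. Klf17 and Pou5f1 were present in MII oocytes, Klf4, Klf5, Sox2 and Spic were far higher in 2cell embryos, and Nanog and Cdx2 stayed below 0.14 FPKM in every library.

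In CPEB3+/- 2cell embryos the order was different. *Spic* had the highest mean, 21.9 ± 6.87 FPKM (SD, n = 5), with a range that overlapped that of *Klf4* at 14.1 ± 3.32 FPKM, which in turn overlapped that of *Klf17* at 12.2 ± 3.24 FPKM. *Sox2* (4.46 ± 0.410 FPKM), *Klf5* (4.19 ± 0.539 FPKM) and *Pou5f1* (3.22 ± 0.835 FPKM) followed, each overlapping the next. *Tfap2c* was at 1.09 ± 0.295 FPKM and *Nr5a2* at 0.211 ± 0.0422 FPKM. *Cdx2* and *Nanog* had means of 0.0278 and 0.0190 FPKM, and 9 of the 10 values of these 2 genes lay below the level that 3 fragments give.

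The comparison of 2cell embryos with MII oocytes shows how each transcript stands at the stage at which maternal RNA is being cleared and the embryonic genome activated. Of the 10 genes, 8 passed the filter on low values in the fit of all libraries, and *Nanog* and *Cdx2* did not. In CPEB3+/- samples, *Spic*, *Klf5*, *Klf4*, *Sox2* and *Nr5a2* rose and *Klf17* and *Pou5f1* fell (limma, adjusted p under 0.05 and more than 1.5-fold). All 7 had groups that did not overlap, as had 58.9% of all tested genes. *Spic*, *Klf5* and *Nr5a2* were near or below 0.1 FPKM in MII oocytes and passed the filter through the 2cell libraries, so their rise is a description, given without a p. These stages differ in most of the transcriptome: 42.6% of the 15786 tested genes were called higher and 23% lower, so a call here is not particular to these genes.

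*Spic* had the largest change, from 0.0226, 0.0421, 0.0454, 0.0996 and 0.0299 FPKM in replicates A to E of CPEB3+/- MII oocytes to 21.3, 29.2, 14.7, 15.7 and 28.6 FPKM in 2cell embryos. Every 2cell library was thus far above every MII library. The log2 fold change on the log2(FPKM + 0.1) scale was 7.26 (SE 0.256), and 4.47 with a pseudocount of 1 FPKM, since the MII level is close to 0. *Klf5*, a factor of early embryonic genome activation and of the trophectoderm, rose from 0.0188 ± 0.00789 to 4.19 ± 0.539 FPKM (log2 fold change 5.25, SE 0.127), and by 2.40 with a pseudocount of 1 FPKM.

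*Klf4* was at 0.891, 1.71, 0.921, 0.977 and 0.873 FPKM in CPEB3+/- MII oocytes and at 8.70, 14.2, 17.1, 16.5 and 13.8 FPKM in 2cell embryos (log2 fold change 3.68, SE 0.204, adjusted p = 1.02e-11). *Sox2* was at 0.523, 0.232, 0.349, 0.473 and 0.149 FPKM in MII oocytes and at 4.71, 4.53, 4.06, 4.04 and 4.98 FPKM in 2cell embryos, where it varied least of the 10 genes (coefficient of variation 9.19%). Its log2 fold change was 3.51 (SE 0.266, adjusted p = 9.98e-10, limma), and 2.08 with a pseudocount of 1 FPKM. *Nr5a2* rose by less, 0.84 on the log2 scale (SE 0.132), from 0.0793 to 0.211 FPKM, and it was under 1.5-fold when libraries were scaled to their sum of FPKM (0.34), with quantile scaling (0.08) and with a pseudocount of 1 FPKM (0.18). *Klf17* fell by 1.54 (SE 0.179, adjusted p = 3.60e-07) and *Pou5f1* by 0.69 on the log2 scale (SE 0.189, adjusted p = 0.00329), the latter under 1.5-fold without CPEB3+/- 2cell replicate C and with a pseudocount of 1 FPKM (0.56 in each fit). *Tfap2c* had a log2 fold change of -0.09 (SE 0.202, adjusted p = 0.707) and overlapping groups, but passed both thresholds as lower when scaled to the sum of FPKM (-0.88, adjusted p = 0.00122) and with quantile scaling (-0.70, adjusted p = 0.00278).

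In CPEB3-/- samples 5 genes passed both thresholds as higher and 1 as lower, against 42.8% and 21.9% of all tested genes, and the groups of these 6 did not overlap, as for 59.3% of all tested genes. *Sox2* (log2 fold change 4.93, SE 0.283, adjusted p = 2.07e-11, limma) and *Klf4* (3.50, SE 0.216, adjusted p = 5.92e-11) rose. The other 3 are descriptions without a p: *Klf5* (5.16, SE 0.135) and *Spic* (3.81, SE 0.271) passed the filter through the 2cell libraries, and *Tfap2c* (1.52, SE 0.215) was listed by the study for its difference in these MII libraries. *Klf17* fell by 0.97 (SE 0.190, adjusted p = 0.000168). *Nr5a2*, also a description because it passed the filter through the 2cell libraries, had a log2 fold change of 0.35 (SE 0.140), of -0.54 with quantile scaling and of 0.62 with the GC trend removed. *Pou5f1* had a log2 fold change of 0.05 (SE 0.201, adjusted p = 0.838), but of -0.68 (adjusted p = 0.0099) when libraries were scaled to their sum of FPKM and of -0.50 (adjusted p = 0.0423) with quantile scaling; the first of these passed both thresholds and the second was under 1.5-fold. The tested genes as a whole had a median change of 0.41 (log2) in CPEB3+/- and 0.43 in CPEB3-/- samples, and -0.24 and -0.26 with quantile scaling. The part of this shift in the differences between settings was not tested.

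**Figure D2:**
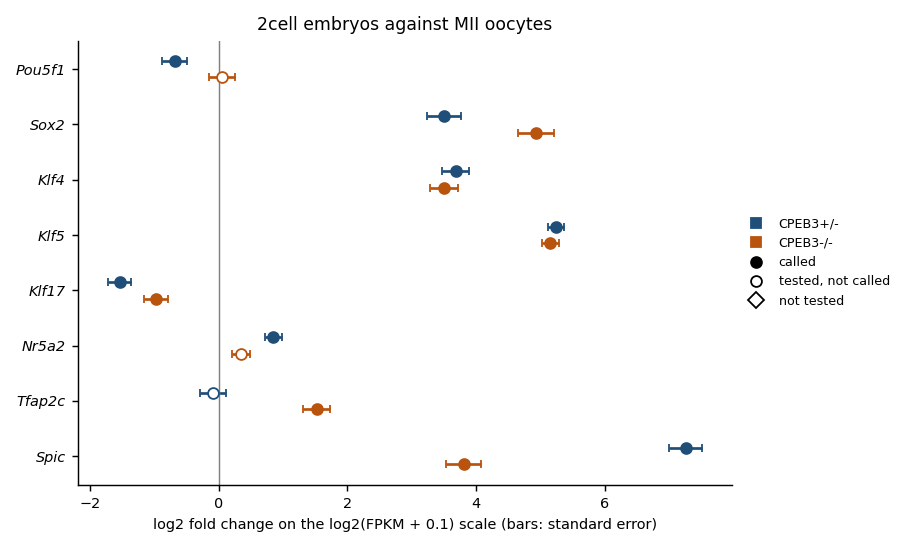
Log2 fold change of 2cell embryos against MII oocytes (x axis, on the log2(FPKM + 0.1) scale) for the 8 genes that passed the filter, in CPEB3+/- (blue) and CPEB3-/- (orange) samples. Points are limma estimates, bars are standard errors, and filled points passed both thresholds, which for Spic, Klf5, Nr5a2 and, in CPEB3-/- samples, Tfap2c is a description; Spic stood at 7.26 in CPEB3+/- and at 3.81 in CPEB3-/- samples, and Sox2 at 3.51 and 4.93.

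In MII oocytes, the comparison of genotypes asks whether the FPKM of these transcripts differed with the CPEB3 genotype. According to the methods, mRNA was captured and amplified before sequencing. The part of poly(A) tail length in the values was not tested. *Klf4* was higher in CPEB3-/- than in CPEB3+/- MII oocytes, while *Pou5f1*, *Sox2* and *Klf17* did not pass the test. Of the 5 genes above the filter 4 were tested, and 1 was called higher and 0 lower in limma (2 and 0 at an unadjusted p under 0.05), where 5.65% and 7.18% of the 10515 tested genes were called. Over all tested genes the median difference was 0.01 (log2). The oocyte markers summed to 1322 to 1619 FPKM in CPEB3+/- and 915 to 1232 FPKM in CPEB3-/- MII oocytes, and the markers of 2cell genome activation to 38.3 to 45.2 and 46.3 to 61.3 FPKM, both without overlap. Of the 10 oocyte markers tested, 1 was called, *Mos*, the kinase that holds the MII arrest, which was lower (214 against 67.5 FPKM, adjusted p = 0.000152, limma). Of the activation markers, 2 of the 6 tested were called higher, among them *Zscan4d*, also a candidate of the study (1.15 against 9.88 FPKM). Their part in the differences below was not tested.

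*Klf4* was at 0.891, 1.71, 0.921, 0.977 and 0.873 FPKM in CPEB3+/- and at 2.39, 2.31, 1.70, 1.38 and 1.78 FPKM in CPEB3-/- MII oocytes. The groups overlapped through CPEB3+/- replicate B, the highest of its group. The log2 fold change was 0.71 (SE 0.185, adjusted p = 0.0232). The call was lost without CPEB3+/- replicate A, C or D or CPEB3-/- replicate B, with adjusted p of 0.0525 to 0.0546, and it fell under 1.5-fold, to 0.44, with a pseudocount of 1 FPKM and to 0.53 once the trend with GC content was removed.

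*Klf17* was at 54.8, 59.8, 53.7, 44.5 and 47.4 FPKM in CPEB3-/- MII oocytes, overlapping the CPEB3+/- libraries (log2 fold change 0.39, SE 0.162, adjusted p = 0.105). *Pou5f1* was at 9.39, 5.62, 5.99, 5.66 and 4.38 FPKM (log2 fold change 0.05, SE 0.179, adjusted p = 0.850). *Sox2* was at 0.788, 0.246, 0.251, 0.347 and 0.311 FPKM (log2 fold change 0.04, SE 0.320, adjusted p = 0.943), so a difference smaller than its wide spread was not detectable. In CPEB3-/- replicate A both *Pou5f1* and *Sox2* were highest of their group.

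*Tfap2c*, which acts in trophectoderm and germ cell development, was at 1.35, 1.38, 0.812, 1.34 and 1.19 FPKM in CPEB3+/- and at 0.623, 0.324, 0.550, 0.227 and 0.468 FPKM in CPEB3-/- MII oocytes. The highest CPEB3-/- value was below the lowest CPEB3+/- value, which holds for 1 of the 5 genes above the filter and, in either direction, for 16.3% of the genes tested. *Tfap2c* was on the study's list for its difference here, so these shares are not to be compared. The mean was 63.9% lower and the log2 fold change -1.41 (SE 0.210), or -0.66 with a pseudocount of 1 FPKM. In 2cell embryos *Tfap2c* was at 0.733, 0.899, 1.31, 1.04 and 1.45 FPKM in CPEB3+/- and at 1.15, 1.07, 1.36 and 1.42 FPKM in CPEB3-/- samples, with overlapping groups (log2 fold change 0.20, SE 0.193, adjusted p = 0.501, limma). The interaction of stage and genotype was 1.61 on the log2 scale (SE 0.295), given without a test.

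Genes below the filter were compared by a two-sided exact permutation test of the mean FPKM, 7 tests in all over both stages. The smallest possible p was 0.00794 in MII oocytes and larger in 2cell embryos. *Klf5* was at 0.0119 to 0.0281 FPKM in CPEB3+/- and at 0.0278 to 0.0604 FPKM in CPEB3-/- MII oocytes (exact permutation p = 0.0159), and *Spic* at 0.0226 to 0.0996 and at 0.0661 to 0.188 FPKM (p = 0.0397). These levels correspond to fewer than 15 fragments in each library, and with this smallest p no single test could pass a Bonferroni correction over the 7, so all 7 p-values are given unadjusted. *Nr5a2* (0.0793 against 0.0641 FPKM, exact permutation p = 0.206), *Cdx2* (p = 1) and *Nanog* (p = 1) did not pass the test in MII oocytes. *Nanog* had 2 MII libraries above 0, both at under 1 fragment.

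In 2cell embryos, the comparison of genotypes asks which embryonic transcripts differed after fertilization of CPEB3-/- oocytes. *Sox2*, *Klf17* and *Pou5f1* were higher in CPEB3-/- embryos, and *Spic* and *Nr5a2* lay below their CPEB3+/- levels in all libraries. *Klf4*, *Klf5* and *Tfap2c* did not pass the test. Of the 7 genes in the fit besides *Spic*, 3 passed both thresholds as higher and 1 as lower, where 9.09% and 8.97% of the 14051 tested genes did. The lower one is *Nr5a2*, a description for the reason given with its values. Over all tested genes the median was 0.02 (log2). Of the 9 markers of 2cell genome activation, 1 was called higher, *Gm4340* (log2 fold change 2.12). Called lower were 2, *Zscan4d* (-0.99), also a candidate of the study, and *Rfpl4b* (-0.88). Of the 10 oocyte markers 1 was called, *Oosp1*, which was lower (-0.66). The part of these markers in the differences below was not tested. Groups did not overlap for *Sox2*, *Klf17*, *Nr5a2* and *Spic*, 4 of the 8 genes above the filter, and for 20% of all tested genes. *Spic* was selected on these libraries and *Nr5a2* passed the filter through its CPEB3+/- libraries, so these shares are not to be compared.

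*Sox2* (chromosome 3, 34650405 to 34652461) was at 4.71, 4.53, 4.06, 4.04 and 4.98 FPKM in CPEB3+/- and at 17.1, 12.8, 9.32 and 12.2 FPKM in CPEB3-/- 2cell embryos. The lowest CPEB3-/- library was above the highest CPEB3+/- library, and the CPEB3-/- libraries spread more (SD 3.22 against 0.410 FPKM). The log2 fold change was 1.46 (SE 0.169, adjusted p = 0.00129, limma), and it stayed between 1.30 and 1.77 and past both thresholds under each scaling, pseudocount, filter, GC correction and left-out library tried. *Sox2* lies within the span of the noncoding gene *Sox2ot* on the same strand, but shares 0 exon bases with it.

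*Klf17* (chromosome 4, 117757836 to 117765648) was at 10.9, 8.70, 16.7, 14.4 and 10.4 FPKM in CPEB3+/- and at 23.1, 26.6, 19.4 and 25.1 FPKM in CPEB3-/- 2cell embryos, again without overlap. The log2 fold change was 0.95 (SE 0.188, adjusted p = 0.00857). Its mean in CPEB3-/- embryos, 23.6 FPKM, was above the 12.2 FPKM of CPEB3+/- embryos and below the 38.3 and 52.0 FPKM of CPEB3+/- and CPEB3-/- MII oocytes. The call held without each library in turn, with adjusted p of at most 0.0270.

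*Pou5f1* (chromosome 17, 35506018 to 35510772) was at 3.80, 4.39, 2.45, 2.81 and 2.67 FPKM in CPEB3+/- and at 6.82, 5.55, 5.87 and 4.23 FPKM in CPEB3-/- 2cell embryos. The groups overlapped through CPEB3+/- replicate B and CPEB3-/- replicate D. The log2 fold change was 0.78 (SE 0.218, adjusted p = 0.0331), but the call was lost without CPEB3+/- replicate C, D or E or CPEB3-/- replicate A, B or C (adjusted p 0.0575 to 0.0876), and without a filter on low values (adjusted p = 0.0575), and with the GC trend removed the log2 fold change was 0.42 (adjusted p = 0.260). Of the exon bases of *Pou5f1*, 14.1% are shared with an antisense gene, *Gm19553*, and the counting is not stated to use strand, so reads of both cannot be told apart there.

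*Nr5a2* (chromosome 1, 136842571 to 136960448) was at 0.216, 0.226, 0.188, 0.157 and 0.270 FPKM in CPEB3+/- and at 0.108, 0.0556, 0.106 and 0.130 FPKM in CPEB3-/- 2cell embryos, about 6 to 32 fragments in a library. The groups did not overlap and the mean was 52.6% lower in CPEB3-/- embryos (log2 fold change -0.65, SE 0.187, and -0.14 with a pseudocount of 1 FPKM). All 5 CPEB3+/- but only 3 of the 4 CPEB3-/- libraries reached the 0.1 FPKM that the filter asks of 4 libraries, so the difference is given as a description. In the fit without a filter it did not pass the test (adjusted p = 0.0664, limma), and with the GC trend removed it was -0.43.

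*Klf4* was at 23.0, 18.7, 15.0 and 24.3 FPKM in CPEB3-/- 2cell embryos, with a mean 44.0% above that of the CPEB3+/- libraries and overlapping groups (log2 fold change 0.52, SE 0.203, adjusted p = 0.103). It passed both thresholds when libraries were scaled to their sum of FPKM (0.83, adjusted p = 0.0252), a scaling that also moved the median of all tested genes from 0.02 to 0.27, and with a filter of 1 FPKM (adjusted p = 0.0475). *Klf5* was at 5.72, 3.85, 3.89 and 5.36 FPKM, against 3.63 to 4.87 FPKM in CPEB3+/- embryos (log2 fold change 0.13, SE 0.153, adjusted p = 0.589). Among the genes below the filter, *Nanog* was at 0 to 0.0487 FPKM in CPEB3+/- and 0.0395 to 0.136 FPKM in CPEB3-/- embryos (unadjusted p = 0.0317, exact permutation test), at most 5.69 fragments. *Cdx2* was listed at 0 in 4 of the 9 libraries and reached at most 0.0807 FPKM (p = 0.556, exact permutation test).

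**Figure D3:**
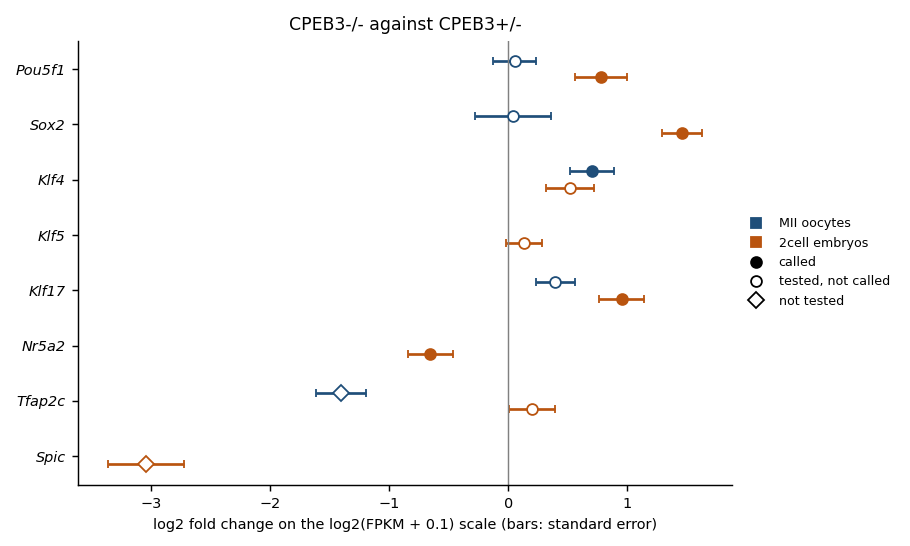
Log2 fold change of CPEB3-/- against CPEB3+/- samples (x axis, on the log2(FPKM + 0.1) scale) in MII oocytes (blue) and 2cell embryos (orange) for genes above the filter. Points are limma estimates with standard errors, filled where past both thresholds, which for Nr5a2 is a description, and diamonds where not tested; Sox2 stood at 0.04 in MII oocytes and 1.46 in 2cell embryos, and Spic at -3.04 in 2cell embryos.

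*Spic* (chromosome 10, 88674772 to 88685015) was at 21.3, 29.2, 14.7, 15.7 and 28.6 FPKM in CPEB3+/- and at 4.48, 2.09, 1.55 and 2.66 FPKM in CPEB3-/- 2cell embryos. The highest CPEB3-/- library was far below the lowest CPEB3+/- library. The mean was 87.7% lower and the log2 fold change -3.04 (SE 0.317), between -3.30 and -2.66 under all settings and left-out libraries tried. The interaction of stage and genotype was -3.45 on the log2 scale (SE 0.373), again given without a test. The CPEB3-/- embryos were nevertheless well above their MII oocytes, where *Spic* was at 0.0661 to 0.188 FPKM.

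Because *Spic* is known from macrophages, their markers were examined. Of 10 macrophage markers 6 are in the table, and they summed to 0.872 to 2.90 FPKM in CPEB3+/- and 2.01 to 3.53 FPKM in CPEB3-/- 2cell embryos, and to 1.23 to 1.66 and 2.52 to 3.60 FPKM in MII oocytes. Most of this came from *Cd68*, a lysosomal membrane protein, and the complement gene *C1qb*. Both were called higher in CPEB3-/- MII oocytes (*Cd68* 0.943 against 2.05 FPKM, adjusted p = 0.00402; *C1qb* 0.502 against 0.981 FPKM, adjusted p = 0.00845), and *C1qb* also in CPEB3-/- 2cell embryos (0.332 against 1.20 FPKM, log2 fold change 1.69, adjusted p = 0.0195, limma). *Csf1r*, the receptor that defines macrophages, was at most 0.0334 FPKM in any library, and *Lyz2*, the lysozyme of macrophages, was listed at 0 in every MII library and had means of 0.355 FPKM in CPEB3+/- and 0.136 FPKM in CPEB3-/- 2cell embryos. The part of macrophage transcripts in the *Spic* values was not tested.

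The 5 genes with the profile most like that of *Spic* were *Gabpa*, an ETS factor, *Lpar6*, a lysophospholipid receptor, *Pramel6*, *Gm5852* and *Ctsc*, the protease cathepsin C. Likeness was measured as the root mean square difference of the centred log2(FPKM + 0.1) values over the 19 libraries, among 7058 genes with a mean of at least 1 FPKM in a group, and was 0.593, 0.634, 0.686, 0.692 and 0.710 in that order. In CPEB3+/- 2cell embryos their means were 9.29, 8.68, 7.68, 15.9 and 5.45 FPKM, and those of the CPEB3-/- embryos were 0.312, 0.248, 0.324, 0.194 and 0.151 times as high. All 5 had means under 0.02 FPKM in both MII groups. The genes were picked by likeness over all libraries, so a pattern between the groups like that of *Spic* follows from the choice. Of the other members that could be compared, *Klf5* was nearest to *Spic* (1.16) and *Klf17* farthest (3.81).

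**Figure D4:**
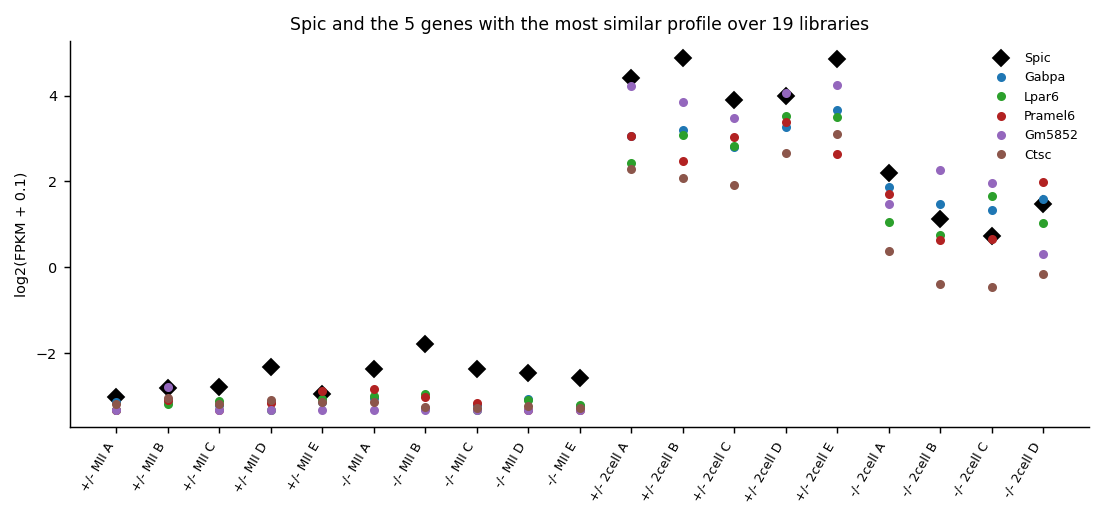
Log2(FPKM + 0.1) (y axis) of Spic (black diamonds) and of the 5 genes with the most similar profile (coloured points) in each of the 19 libraries (x axis, letters are replicates without order). All were near the lower limit in MII oocytes, highest in CPEB3+/- 2cell embryos and lower in CPEB3-/- 2cell embryos. For the 5 genes this follows from their choice by likeness. Spic had a mean of 2.70 FPKM in CPEB3-/- 2cell embryos.

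Whether a genotype difference changed with the stage was tested as an interaction in the fit of all 19 libraries. *Sox2* was called (1.43 on the log2 scale, SE 0.388, adjusted p = 0.0299), 1 of the 6 genes counted in the fit and of the 4 given a p here, where 8.2% of the 15786 tested genes were. The call was lost in 10 of the 19 fits that left out a library, with adjusted p of up to 0.0690: without CPEB3+/- MII replicate A, C or D, CPEB3-/- MII replicate B, C or E, CPEB3+/- 2cell replicate C or CPEB3-/- 2cell replicate A, B or D. *Pou5f1* (0.74, adjusted p = 0.110), *Klf17* (0.57, adjusted p = 0.198) and *Klf4* (-0.18, adjusted p = 0.774) did not pass. *Nr5a2* (-0.50) and *Klf5* (-0.09), which were in the fit but near or below 0.1 FPKM in MII oocytes, are given without a p. The genotype and stage contrasts share libraries, so they are no independent views of a gene.

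Differences between the genotypes followed the GC content of the transcripts over all genes. In MII oocytes the median log2 fold change was -0.17 for transcripts of up to 45% GC and 0.25 for those above 55%, and in 2cell embryos it was -0.25 and 0.38. *Pou5f1* (57.6% GC) and *Klf4* (54.6%) are GC-rich and *Spic* (41.8%) and *Nr5a2* (43.2%) GC-poor, whereas *Sox2* (50.5%) and *Klf17* (50.0%) lie between them. With the trend removed, *Sox2* (1.39) and *Klf17* (0.91) were still called in 2cell embryos, *Pou5f1* (0.42) was not, *Nr5a2* was at -0.43, and *Spic* had a log2 fold change of -2.75.

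**Figure D5:**
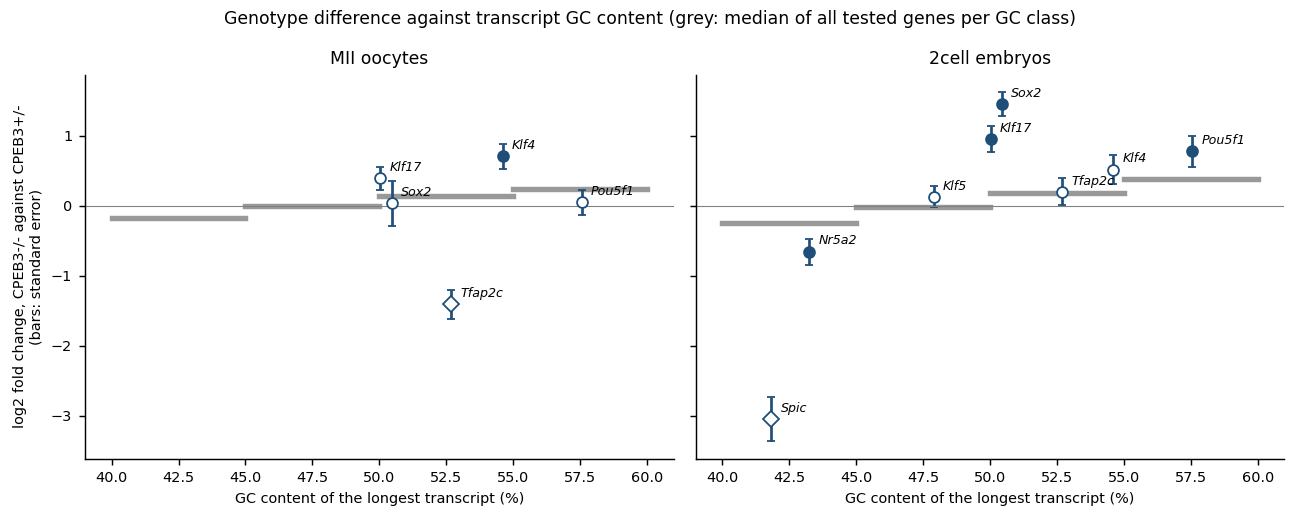
Log2 fold change of CPEB3-/- against CPEB3+/- samples (y axis, bars are standard errors) against the GC content of the longest transcript in percent (x axis) in MII oocytes and 2cell embryos. Filled points passed both thresholds (for Nr5a2 a description), diamonds were not tested, and grey lines are medians of all tested genes up to 45%, to 50%, to 55% and above 55% GC, the outer 2 drawn to 40 and 60%; in 2cell embryos these medians rose from -0.25 to 0.38.

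The partners of these factors in the pluripotency network were taken from a fixed list of 22 genes, all in the table. In CPEB3-/- 2cell embryos 2 of the 15 tested were higher and 3 lower, where 9.09% and 8.97% of all tested genes were, with a median log2 fold change of 0.03 against 0.02 over all tested genes. *Stat3*, the transducer of LIF signals, rose from 0.292 ± 0.0641 to 0.693 ± 0.0383 FPKM (log2 fold change 1.02, adjusted p = 0.00397, limma) and *Tbx3* from 0.840 ± 0.252 to 1.62 ± 0.227 FPKM (0.88, adjusted p = 0.0128). *Dppa5a*, an abundant RNA-binding protein of early embryos, fell from 343 ± 65.4 to 133 ± 18.9 FPKM (-1.38, adjusted p = 0.00125), and *Dppa4* (-0.86, adjusted p = 0.0229) and *Fbxo15* (-0.77, adjusted p = 0.00860) fell with it. In MII oocytes (background 5.65% higher and 7.18% lower) 1 of the 10 tested was higher, again *Stat3* (0.951 against 1.74 FPKM, 0.75, adjusted p = 0.00653), and 1 lower, *Dppa3*, the maternal factor STELLA that protects DNA methylation, from 962 ± 96.4 to 658 ± 107 FPKM (-0.65, adjusted p = 0.0199). Between the stages 9 of 16 passed both thresholds as higher and 3 as lower in each genotype, led by *Utf1* and *Dppa4*. Of all tested genes, 42.6% and 23% did so in CPEB3+/- and 42.8% and 21.9% in CPEB3-/- samples. *Utf1* in both genotypes and *Zfp42* in CPEB3+/- samples were under 0.1 FPKM on average in MII oocytes. They passed the filter through the 2cell libraries, so their rise is a description and the shares are not to be compared.

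Among 12 trophectoderm genes, 1 of 4 tested was higher in CPEB3-/- MII oocytes, *Id2*, an inhibitor of basic helix-loop-helix factors (0.719 against 1.92 FPKM, log2 fold change 1.19, adjusted p = 0.00614), and 1 of 8 in 2cell embryos, *Yap1*, the coactivator of TEAD factors (0.953 against 1.86 FPKM, 0.89, adjusted p = 0.00477), where 5.65% and 9.09% of all tested genes were higher. Of 6 primitive endoderm genes only *Gata4* passed the filter within each stage, where it lay higher in CPEB3-/- samples (0.0681 against 0.176 FPKM in MII oocytes and 0.0865 against 0.271 FPKM in 2cell embryos). The CPEB3+/- means are under the filter of 0.1 FPKM, so these are descriptions. Among 27 relatives of the members, 23 in the table, 6 of the 16 tested were higher and 1 lower in CPEB3-/- 2cell embryos, where 9.09% and 8.97% of all tested genes were, with a median log2 fold change of 0.48 against 0.02. *Tfap2e*, a relative of *Tfap2c*, rose from 0.674 ± 0.113 to 2.21 ± 0.372 FPKM (1.55, adjusted p = 0.00142), *Pou3f1*, of the POU family of *Pou5f1*, from 1.84 ± 0.527 to 4.49 ± 1.29 FPKM (1.24, adjusted p = 0.0121), and *Klf16* by 0.87 (adjusted p = 0.0101). *Sox15*, which is close to *Sox2*, fell from 4.94 ± 0.888 to 2.06 ± 2.02 FPKM (-1.61, adjusted p = 0.0358). In MII oocytes 1 of 10 relatives was called, where 5.65% of all tested genes were higher and 7.18% lower. This was *Tfap2b*, which was higher (0.849 against 1.43 FPKM, 0.61, adjusted p = 0.00690), whereas *Tfap2c* itself lay lower there.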

How the data were processed

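RNA of MII oocytes and 2cell embryos was sequenced in 19 libraries, grouped by their labels; the methods give quadruplicates, and every labelled library was used. According to the submitters' notes, reads were trimmed with Trim Galore 0.4.1 and mapped to GRCm38 with HISAT2 2.0.5, and the deposited FPKM values were computed by the authors in SeqMonk. The table is named as raw counts, but only 0.00203% of its values are whole numbers above 0, so no count model was used. Of the low values of 9238 genes with 1 transcript, 34.7 to 42.4% lay within 0.05 of whole fragments (10% by chance), which gave depths of 16.9 to 23.5 M fragments, searched between 12 and 28 M. GENCODE vM21 matched 25594 of 25891 genes. There were 0 columns of values not used, and 0 pairs of libraries were identical.

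Genes with at least 0.1 FPKM in 5 libraries (MII) or 4 (2cell and all groups) were tested in limma 3.58.1 (R 4.3.3) with a variance trend on log2(FPKM + 0.1), scaled by trimmed means of log ratios (30% of ratios, 5% of levels). Genotypes were fitted within a stage, and stage and interaction in 1 fit of all groups. The Benjamini-Hochberg adjustment ran over all tested genes. Called genes had an adjusted p under 0.05 and over 1.5-fold (interaction: adjusted p only). The script was tested on simulated data. Genes below the filter had a two-sided exact permutation test of the mean (252 arrangements in MII, 126 in 2cell). Alternatives were other scalings, a pseudocount of 1, other filters, a loess GC correction (span 0.5), the replicate letter as a block, all groups in 1 fit and each library left out. Other steps ran in Python 3.11.15 with pandas 2.3.3 and scipy 1.17.1.

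The members and gene lists were chosen with earlier results of these data known. All 10 members are named; from each list the called genes are counted and at most the 3 largest rises and falls per comparison named, and for *Spic* the 5 most similar genes.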

Additional observations from a re-analysis of the deposited data

Results flagged for a closer look

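In 7 of the 40 sets of libraries (10 genes in 4 groups) the highest library stood apart from the others by Dixon's criterion, where chance gives about 1 in 20. In 3 of the 7 (*Nanog* in both MII groups, *Cdx2* in CPEB3-/- MII oocytes) the other 4 libraries were at 0, which fixes the outcome, so the share is not to be read against chance. All 7 were in MII oocytes. *Klf4* was at 1.71 FPKM in CPEB3+/- replicate B, which is the library through which the genotypes overlap. *Sox2* was at 0.788 FPKM in CPEB3-/- replicate A, and *Spic* at 0.188 FPKM in CPEB3-/- replicate B. *Nr5a2* was at 0.110 FPKM in CPEB3+/- replicate D. *Cdx2* was at 0.0436 FPKM in CPEB3-/- replicate C, and *Nanog* at 0.00351 FPKM in CPEB3+/- replicate C and 0.00364 FPKM in CPEB3-/- replicate A, the last 3 on at most about 2 fragments.

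The genotype difference of *Sox2* differed between the stages by 1.43 on the log2 scale (interaction in limma, adjusted p = 0.0299), from 0.04 in MII oocytes to 1.46 in 2cell embryos. The call was lost in 10 of the 19 fits that left out a library (adjusted p 0.0502 to 0.069) and without a filter (adjusted p = 0.0512).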

How the results depend on the processing

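The number of genes called higher or lower in MII oocytes, 1, was 0 with a pseudocount of 1 and with the GC trend removed, and 0 to 1 without each library in turn. In 2cell embryos it was 4, but 2 without a filter and with the GC trend removed, and 2 to 4 with libraries left out (2 without CPEB3+/- replicate E or CPEB3-/- replicate A, B or C). *Nr5a2*, a description, is among the 4. The interaction count of 1 was 2 with quantile scaling, 0 without a filter and 0 to 1 with libraries left out. The stage counts of 7 and 6, which hold descriptions too, stayed within 1.5 times under all settings. The replicate letters did not pair the libraries (correlation of the deviations of same-lettered libraries -0.148 to 0.097); with the replicate block 1 gene, *Sox2*, was called in 2cell embryos (adjusted p = 0.0386), and *Klf17* (0.90, adjusted p = 0.084) and *Pou5f1* (0.72, adjusted p = 0.0952) were not.

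Signs turned for *Pou5f1* in MII oocytes (-0.16 with the GC trend removed, -0.084 to 0.15 with libraries left out), *Sox2* in MII oocytes (-0.036, and -0.18 to 0.20), and *Tfap2c* between CPEB3+/- stages (-0.20 to 0.030 with libraries left out). In CPEB3-/- samples the stage change of *Pou5f1* was -0.12 as deposited, -0.68 scaled to the sum, -0.50 with quantile scaling, -0.037 without a filter, -0.39 with the GC trend removed and -0.10 to 0.13 with libraries left out, and that of *Nr5a2* was -0.54 with quantile scaling. The interaction turned for *Klf4* (0.066 with a pseudocount of 1) and *Klf5* (0.11 scaled to the sum, 0.0031 with quantile scaling, 0.084 with a pseudocount of 1, -0.21 to 0.0038 with libraries left out). The cause of these changes was not tested.

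Over all genes, 1349 were called in MII oocytes, 480 with a pseudocount of 1, 832 with the block and 771 with a filter of 1 FPKM; in 2cell embryos 2538, 1163, 388 and 1497. The share called higher was 44.0% and 50.3%, but 57.1% in MII oocytes as deposited and 70.0% and 81.0% when scaled to the sum. Depth limits values near 0.1 FPKM, which rest on few fragments.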
